A study of Mus musculus with 8 samples.

Results

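The genes described here encode the enzymes that macrophages use to make nitric oxide, prostaglandins and itaconate, together with those that supply or compete for arginine. They were chosen by symbol with earlier results of these data known, so shares of all genes set beside theirs are descriptions only. The 10 genes listed (Nos2, Ptgs2, Ptges, Ptgs1, Hpgd, Gch1, Ass1, Arg2, Slc7a2 and Acod1, the last written Irg1 in the tables) were all found among 24421 genes. Their RNA was sequenced in RAW macrophages, an established macrophage-like line of mouse origin, as 4 groups with 2 libraries per group. Untreated cells (ctl) were set beside cells given 5 mM methyl-β-cyclodextrin for 1 h (MCD, a ring-shaped sugar that takes cholesterol from membranes), cells given 100 ng/ml lipopolysaccharide for 3 h (LPS, which TLR4 senses on bacteria), and cells given MCD and then LPS (MCD-LPS). By the methods of the study, MCD was washed out before LPS, so MCD-LPS cells met MCD first and LPS afterwards, and MCD cells were read at the end of MCD. The study asked how lowering cholesterol in macrophages changes their resting and LPS-stimulated gene expression. The labels do not say whether replicate libraries were grown as separate cultures, and p-values therefore cover the spread between libraries alone, which may be technical.

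As background, inducible nitric oxide synthase (Nos2) converts arginine to nitric oxide and citrulline. It needs tetrahydrobiopterin, whose synthesis starts with Gch1, and arginine, which Slc7a2 imports and which Ass1, with argininosuccinate lyase, regenerates from citrulline; the mitochondrial arginase Arg2 uses the same arginine to make ornithine. Prostaglandins are made from arachidonic acid by the constitutive cyclooxygenase Ptgs1 and the inducible cyclooxygenase Ptgs2; Ptges then forms prostaglandin E2, and Hpgd inactivates it. Acod1 is the mitochondrial enzyme that decarboxylates cis-aconitate to itaconate, an inhibitor of succinate dehydrogenase. Nos2, Ptgs2 and Acod1 are known as strongly LPS-inducible genes of mouse macrophages.

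Promoter sequence is shown for the inducible Ptgs2 and Acod1, which were higher in the LPS libraries, and for Ptgs1, which was lower there. Each line is the 250 bases before the RefSeq start of the gene (GRCm38.p6), 5′ to 3′ on the strand of the gene, and capitals mark matches to any of 5 motifs searched on both strands: the NF-κB motif by name, TTGCNNAA (the C/EBP type), TGACGTCA (the cAMP response element), TGANTCA (AP-1) and TATAAA (the TATA box). The windows are chr1:150099781-150100030 for Ptgs2, chr14:103046762-103047011 for Acod1 and chr2:36230176-36230425 for Ptgs1, all on the plus strand.
Ptgs2: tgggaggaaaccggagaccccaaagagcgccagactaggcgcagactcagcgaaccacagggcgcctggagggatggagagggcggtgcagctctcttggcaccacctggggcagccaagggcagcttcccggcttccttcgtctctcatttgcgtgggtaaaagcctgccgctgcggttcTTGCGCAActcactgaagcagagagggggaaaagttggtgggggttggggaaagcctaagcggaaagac
Acod1: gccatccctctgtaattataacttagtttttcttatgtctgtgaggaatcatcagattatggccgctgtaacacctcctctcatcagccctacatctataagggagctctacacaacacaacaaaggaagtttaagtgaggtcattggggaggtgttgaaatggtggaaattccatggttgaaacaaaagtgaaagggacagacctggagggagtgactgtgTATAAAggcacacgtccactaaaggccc
Ptgs1: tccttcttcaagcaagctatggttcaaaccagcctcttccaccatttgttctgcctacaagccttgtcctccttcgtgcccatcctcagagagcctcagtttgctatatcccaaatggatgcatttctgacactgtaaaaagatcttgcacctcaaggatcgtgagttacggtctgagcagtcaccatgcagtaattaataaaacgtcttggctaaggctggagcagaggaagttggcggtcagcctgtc
The Ptgs2 window held 1 match, the C/EBP type from 69 to 62 bases before the start, which reads alike on both strands. The Acod1 window held 1 TATA box, from 28 to 23 bases before the RefSeq start, and no motif searched matched in the Ptgs1 window. The GENCODE start of Acod1, chr14:103046977, lies inside this window, and the TATA match lies after that start. Among 32851 windows of the same length, 9.56% held the C/EBP type, 12.4% the TATA box, 7.25% the NF-κB motif, 6.75% the AP-1 motif and 1.55% the cAMP response element. RefSeq windows were also at hand for Gch1, which held an NF-κB match in the 10 bases before its start and a TATA box on the minus strand, and for Ptges, Hpgd and Ass1, which held no match. A match is a description of these letters and not a site of binding.

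The 8 libraries held 38645458 to 48436956 reads in genes, and levels are given as CPM, the reads of a gene for each 1000000 reads in genes. A gene with 0 reads may stand at up to 0.0619 to 0.0776 CPM (3 counts), a limit for counting error only. The 9 macrophage markers were expressed in every library, at a summed level of 9840 to 14290 CPM, and the 12 markers of T, B, NK, epithelial, fibroblast, endothelial, liver and red cells summed to 0.297 to 2.24 CPM, with 7 to 10 of them at 0. The LPS replicates differed from each other in several LPS-responsive genes. Replicate 2 held 2.30-fold the Tnf, 1.95-fold the Cxcl2 and 2.03-fold the Acod1 of replicate 1, while Nos2, at 0.941-fold, did not share this gap. Over 11719 genes, 100 differed by 2-fold or more between these libraries. Results of the listed genes that turn on LPS replicate 1 or 2 are given without it as well. The LPS libraries also held at most 0.0518 CPM of Il6 and no read of Il12b, both textbook LPS targets.

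**Figure D1:**
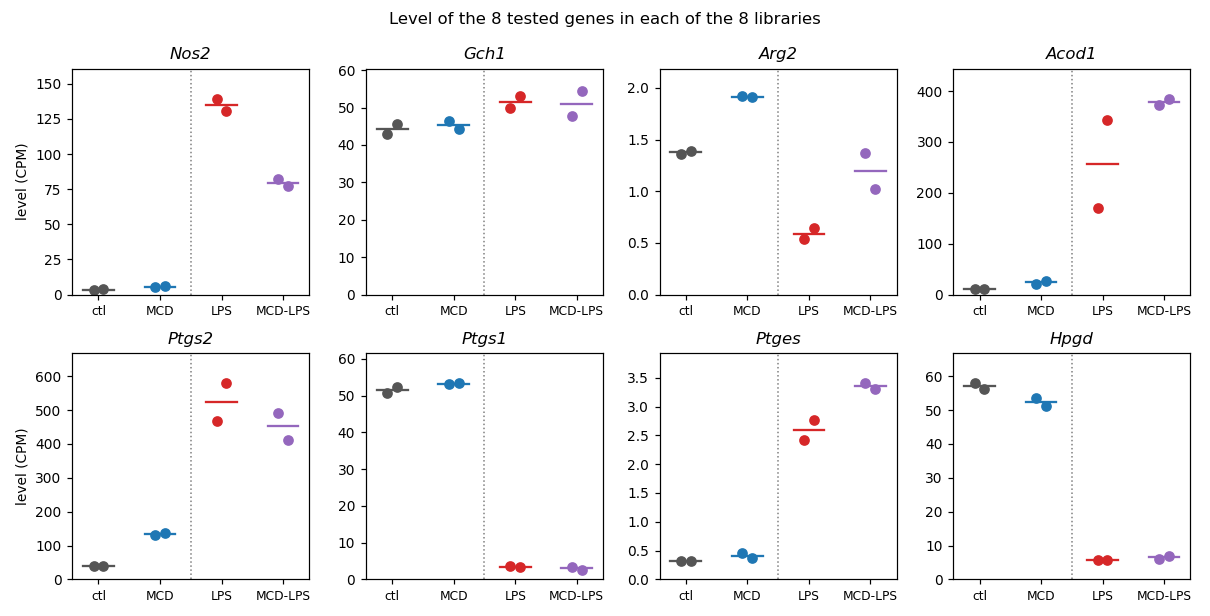
Each panel plots the level of 1 gene in CPM (vertical axis, from 0) in the 8 libraries by group; points are libraries, horizontal lines are means of 2, and the dotted line separates the libraries that the authors normalized in 1 table (ctl, MCD) from those of another (LPS, MCD-LPS). Nos2, Ptgs2, Ptges and Acod1 sit higher to the right of the line, Ptgs1 and Hpgd lower, and Gch1 stays between 43.0 and 54.4 CPM.

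LPS libraries were first set beside ctl libraries. They lie in tables that were normalized separately and so were not tested; a gene was counted as apart where the 2 libraries of one group lay above both of the other and the means differed by at least 2-fold. Of the 8 members that reached a normalized value of 10 in at least 2 of these libraries, 4 were higher with LPS (Nos2, Ptgs2, Ptges and Acod1) and 3 lower (Ptgs1, Hpgd and Arg2), against 11.5% higher and 6.22% lower of 12021 genes. Since every ctl library shares a table with MCD and every LPS library is in the other, LPS and table cannot be told apart here. The median log2 ratio of LPS to ctl over all genes was -0.053 in CPM, -0.23 in the deposited values and -0.015 under TMM scaling, and the members apart numbered 4 and 3 under each. In bulk RNA, fewer cells expressing a gene and less RNA per cell cannot be told apart either.

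Nos2 (chr11:78920787-78960254, GRCm38) was at 3.36 and 3.75 CPM in ctl and at 139 and 131 CPM in LPS. The means of 3.55 ± 0.272 and 135 ± 6.20 CPM (SD, n = 2) differed 38.0-fold, the widest gap among the members. Ptgs2 (chr1:150100031-150108227) was at 39.9 and 38.6 CPM in ctl and at 468 and 579 CPM in LPS, a 13.4-fold gap (39.2 ± 0.918 against 523.5 ± 79.0 CPM, SD, n = 2). Both inducible enzymes were thus high in each LPS library, with no overlap between groups. Acod1 (chr14:103046977-103056573) was at 10.5 and 11.4 CPM in ctl and at 170 and 344 CPM in LPS (replicates 1 and 2), a 23.4-fold gap between means. Ptges (chr2:30889471-30929863) rested on 14 reads in each ctl library and on 104 and 107 reads in LPS, or 0.318 and 0.320 against 2.42 and 2.77 CPM.

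Ptgs1 (chr2:36230426-36252272) and Hpgd (chr8:56294585-56321043) lay on the other side. Ptgs1 was at 50.8 and 52.2 CPM in ctl and at 3.59 and 3.39 CPM in LPS, 14.8-fold lower. Hpgd was at 58.0 and 56.1 CPM in ctl and at 5.61 and 5.80 CPM in LPS, 10.0-fold lower. The constitutive cyclooxygenase and the prostaglandin-inactivating enzyme were thus high in both ctl libraries and low in both LPS libraries, with no overlap. The authors' deposited means over a separate table of RAW libraries bear on these ctl levels. That table pools 2 untreated and 2 LPS-treated libraries, and its mean, scaled to a table sum of 1000000, was 3.44 for Ptgs1 and 6.44 for Hpgd, so its untreated libraries can average no more than 6.87 and 12.9 on that scale. The ctl libraries here were thus above the most that the untreated libraries of the separate table can have averaged, for both genes. Reads of Ptgs1 share exon bases with Gm43621 on the opposite strand, and the sources used here do not say whether counting was by strand.

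Gch1 (chr14:47153895-47189413), which starts tetrahydrobiopterin synthesis, was not apart: 43.0 and 45.7 CPM in ctl and 49.9 and 53.2 CPM in LPS. Arg2 (chr12:79130777-79156301) was low throughout, at 1.36 and 1.39 CPM in ctl and 0.535 and 0.647 CPM in LPS, 2.33-fold lower, on 60 and 61 against 23 and 25 reads. Its exons overlap those of Vti1b and Gm48780 on the opposite strand. Slc7a2 (chr8:40862396-40922308) had 1 read in each ctl library, 1 in MCD replicate 1 and 0 in the other 5, and Ass1 (chr2:31470207-31520672) had 1 read in MCD replicate 1 and 0 in the other 7. Both are under that same limit of 3 counts, so no fold was computed for the arginine importer or for the citrulline-recycling enzyme.

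Per kilobase of exon, the order of the members changed from ctl to LPS. In ctl, Hpgd led at 33.9 ± 0.789 CPM per kb, followed by Ptgs1 at 13.3 ± 0.262, Ptgs2 at 8.56 ± 0.200, Gch1 at 7.09 ± 0.307 and Acod1 at 4.18 ± 0.232 (SD, n = 2). Arg2 at 0.965 ± 0.0152, Nos2 at 0.805 ± 0.0617 and Ptges at 0.0811 ± 0.000333 CPM per kb stood below these. In LPS, Ptgs2 at 114 ± 17.3 and Acod1 at 98.0 ± 46.8 CPM per kb led and did not differ beyond their spread. Nos2 followed at 30.6 ± 1.41, then Gch1 at 8.25 ± 0.378 and Hpgd at 3.39 ± 0.0781 CPM per kb, with Ptgs1, Ptges and Arg2 under 1. In MCD-LPS, Acod1 stood at 144.5 ± 3.28 and Ptgs2 at 98.6 ± 12.5 CPM per kb, a gap wider than their spread.

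MCD alone was then compared with ctl, within 1 table. Fold changes are on the log2(normalized value + 1) scale, where changes of low genes come out too small, and adjusted p-values are from limma with Benjamini-Hochberg adjustment over all genes tested, called at 0.05. Of the 8 members tested, 2 rose (Ptgs2 and Nos2) and 0 fell, against 1.08% higher and 0.034% lower of 11777 genes. At an unadjusted p under 0.05, 4 members were higher and 0 lower, where 1259 of 11777 genes were under it in either direction. Among the members, edgeR and DESeq2 each called 2 higher and 0 lower. Ass1 and Slc7a2 were too low to test. The median log2 fold change of the 8 members was 0.41, and that of all genes tested was -0.002.

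Ptgs2 was at 1807 and 1753 normalized counts in ctl and at 5945 and 6246 in MCD. Both MCD libraries lay more than 3-fold above both ctl libraries, and Ptgs2 rose by 1.78 on the log2 scale (SE 0.10, adjusted p = 5.97e-05, limma). Nos2 was at 152 and 170 normalized counts in ctl and at 259 and 263 in MCD, and rose by 0.69 on the log2 scale (SE 0.07, adjusted p = 0.00199, limma). The groups did not overlap for either gene, but the level of Nos2 after MCD, 5.72 ± 0.0572 CPM (SD, n = 2), was 1.61-fold that of ctl, beside 3.41-fold for Ptgs2. How many of all genes had groups without overlap was not counted for this comparison.

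Acod1 was at 478 and 518 normalized counts in ctl and at 955 and 1214 in MCD. The groups did not overlap, yet the log2 fold change of 1.11 (SE 0.25) did not pass (adjusted p = 0.0835, limma), in a fit whose spread includes the gap between the LPS replicates. Without LPS replicate 1 or without LPS replicate 2, the same change passed, with adjusted p of 2.50e-05 and 2.36e-05. It also passed when only the 4 libraries compared were fitted (adjusted p = 2.88e-07, limma) and with a replicate block (0.028). It did not pass in edgeR (0.122) or DESeq2 (0.0912). Counted over all alternatives, the change stayed without a call in 13 of 17, with log2 fold changes from 0.94 to 1.28 over the 17.

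The other members gave smaller values that did not pass. Arg2, at 61.8 and 63.4 normalized counts in ctl and 87.5 and 87.4 in MCD, had a log2 fold change of 0.48 (SE 0.21, adjusted p = 0.45, limma). Ptges had 0.35 (SE 0.20), on 14 reads in each ctl library against 22 and 17. For the abundant Gch1, Ptgs1 and Hpgd, the 95% interval of the log2 fold change ran from -0.12 to 0.19, from -0.19 to 0.30 and from -0.27 to 0.04.

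**Figure D2:**
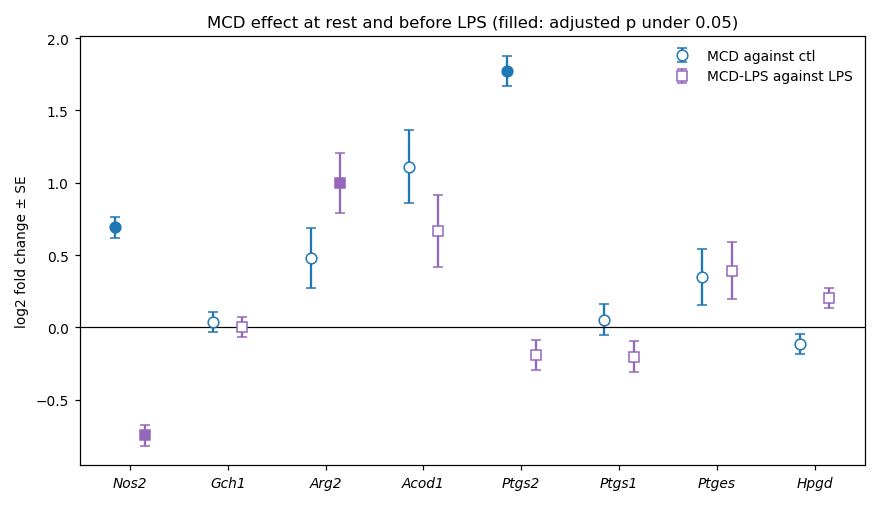
The log2 fold change of the 8 tested members (vertical axis, with its standard error) is plotted for MCD against ctl (circles) and for MCD-LPS against LPS (squares), 2 libraries a group; filled symbols passed at an adjusted p under 0.05. Nos2 is filled on both sides of 0, at 0.69 and -0.74, Ptgs2 is filled only for MCD against ctl, at 1.78, and Arg2 only for MCD-LPS against LPS, at 1.00.

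MCD given before LPS was compared with LPS alone within the other table. Of the 8 members tested, 1 rose (Arg2) and 1 fell (Nos2), against 12.9% higher and 13% lower of 11976 genes, a share of members near that of all genes. The median log2 fold change was 0.10 for the 8 members and 0.003 for all genes tested. The LPS-responsive reference list gave 0 calls in either direction among 7 genes tested by limma. At an unadjusted p under 0.05, 2 were higher and 1 lower, where 4541 of 11976 genes were under it in either direction. By edgeR 1 was called in each direction, and by DESeq2 0. The log2 fold changes were -0.76 for Tnf (SE 0.29, adjusted p = 0.0856, limma), -0.30 for Cxcl2, -0.28 for Nfkbia and -0.05 for Cxcl10. Those of Il1b, Ifit1 and Rsad2 were 0.52, 0.475 and 0.03. Tnf stood at 712 and 1635 CPM in LPS and at 708 and 554.5 CPM in MCD-LPS. Values of this list without an LPS replicate are not given.

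Nos2 was at 5600 and 5268 normalized counts in LPS and at 3367 and 3123 in MCD-LPS. Both MCD-LPS libraries lay below both LPS libraries, and Nos2 fell by 0.74 on the log2 scale (SE 0.07, adjusted p = 0.000252, limma), to 0.597-fold the LPS level. It stayed above ctl: the mean of 79.5 ± 3.64 CPM (SD, n = 2) was 22.4-fold that of ctl, a ratio across tables with no test. The call held in each of 17 alternatives, with log2 fold changes from -0.80 to -0.69.

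Arg2 moved the other way. It was at 21.5 and 26.1 normalized counts in LPS and at 56.3 and 41.4 in MCD-LPS, and rose by 1.00 on the log2 scale (SE 0.21, adjusted p = 0.00718, limma), on 23 and 25 against 56 and 41 reads. The groups did not overlap, and the MCD-LPS mean of 1.20 ± 0.250 CPM (SD, n = 2) stayed below that of ctl, 1.38 ± 0.0218 CPM, by less than its own spread. The call did not hold without MCD-LPS replicate 1 (log2 fold change 0.78, adjusted p = 0.0569) or in a fit of only the 4 libraries compared (adjusted p = 0.0505), and the overlapping Vti1b limits it further.

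Ptgs2 was at 18780 and 23360 normalized counts in LPS and at 20180 and 16670 in MCD-LPS. These ranges overlapped, and the log2 fold change of -0.19 (SE 0.10) did not pass (adjusted p = 0.208, limma); its 95% interval ran from -0.42 to 0.04. Its size rests on single libraries: it passed at -0.35 without LPS replicate 1 (adjusted p = 0.0166), was -0.33 without MCD-LPS replicate 1 (0.0725), and leaving out the second library gave -0.034 for LPS (0.815) and -0.053 for MCD-LPS (0.787). So a difference of the size seen in Nos2 lay outside the interval of Ptgs2 when all libraries were fitted.

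Acod1 was at 6837 and 13860 normalized counts in LPS and at 15300 and 15630 in MCD-LPS. Both MCD-LPS libraries lay above both LPS libraries, but the log2 fold change of 0.67 (SE 0.25) did not pass (adjusted p = 0.0787, limma). Its size rests on the LPS replicates: without LPS replicate 2 it was 1.18 and passed (adjusted p = 4.64e-05), and without LPS replicate 1 it was 0.16. Where Nos2 was lower in both MCD-LPS libraries than in LPS, Acod1 was in neither.

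Ptges was at 97.2 and 111.6 normalized counts in LPS and at 139.8 and 134.4 in MCD-LPS, with a log2 fold change of 0.39 (SE 0.20, adjusted p = 0.175, limma). Hpgd was at 225 and 234 in LPS and at 252.5 and 278 in MCD-LPS (log2 fold change 0.21, SE 0.07, adjusted p = 0.0532, limma), and it passed when LPS replicate 2 was left out (0.0494) and when MCD-LPS replicate 1 was (0.0408). Both Ptges and Hpgd had groups that did not overlap, without a call. The share of all genes without overlap was not counted here, so a lack of overlap has no background to be read against. Ptgs1, at 144 and 137 in LPS and 139 and 107 in MCD-LPS, had overlapping groups and a log2 fold change of -0.20 (SE 0.11, adjusted p = 0.209, limma), which passed without MCD-LPS replicate 1 (-0.39, adjusted p = 0.0157) and was -0.015 (0.926) without MCD-LPS replicate 2. Gch1 had a log2 fold change of 0.002 with a 95% interval from -0.15 to 0.15.

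Whether the MCD effect read after LPS differed from that read at the end of MCD was tested. The effect at rest was subtracted from that before LPS, each taken within its own table. LPS, the time since MCD and the table cannot be told apart in this difference. Of the 8 members tested, 1 had the higher effect before LPS (Hpgd) and 2 the lower (Ptgs2 and Nos2), against 7.12% and 9.99% of 11545 genes. The 2 effects of Nos2 had opposite signs, and their difference was -1.44 on the log2 scale (SE 0.10, adjusted p = 8.89e-05, limma). The difference for Ptgs2 was -1.97 on the log2 scale (SE 0.15, adjusted p = 0.000104, limma). Both calls held in each of 16 alternatives.

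The difference of Hpgd, 0.32 (SE 0.10, adjusted p = 0.0472, limma), stood close to the threshold and did not hold in 9 of 16 alternatives. Neither of its single effects passed (-0.12 at rest and 0.21 before LPS). For Acod1 the difference was -0.44 (SE 0.35, adjusted p = 0.42, limma), and it was -0.95 with an adjusted p of 0.00131 without LPS replicate 1 and 0.07 without LPS replicate 2. For Arg2, called before LPS and not at rest, the difference was 0.52 (SE 0.30, adjusted p = 0.255, limma), so its effects were not shown to differ.

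The reference genes give the setting of these calls. In MCD against ctl, 5 of 7 tested LPS-responsive genes rose (Tnf, Il1b, Cxcl2, Nfkbia and Cxcl10) and 0 fell, and the difference of effects was lower before LPS for the same 5. Tnf rose by 3.30 on the log2 scale with MCD alone (SE 0.29), beside 1.78 for Ptgs2 and 0.69 for Nos2. The log2 fold changes of the others were 4.002 for Il1b, 3.96 for Cxcl2, 1.59 for Nfkbia and 1.28 for Cxcl10, with 0.03 for Rsad2 and for Ifit1, which did not pass. Ptgs2 thus lay within the range of the 5 that rose, and Nos2 below it.

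The partner genes were counted beside the same shares of all genes. Among 16 tested genes of arginine and nitric oxide metabolism, 0 passed in MCD against ctl by limma, edgeR or DESeq2. Under an unadjusted p of 0.05 there were 0, beside 1259 of 11777 genes. In MCD-LPS against LPS, 2 rose and 1 fell, shares near the 12.9% higher and 13% lower of all genes. Slc7a1, the main arginine importer of many cells, rose by 0.67 on the log2 scale (SE 0.08, adjusted p = 0.000472, limma), from 158 and 179 CPM in LPS to 251 and 277 CPM in MCD-LPS, both below the 411 and 363 CPM of ctl. Azin1, which protects ornithine decarboxylase from degradation, rose by 0.43 (SE 0.05, adjusted p = 0.000413, limma). Nos3, the endothelial nitric oxide synthase, fell by 0.64 (SE 0.18, adjusted p = 0.0251, limma) but stood at 2.58 and 2.38 CPM in LPS against 1.64 and 1.49 CPM in MCD-LPS, and DESeq2 did not call it.

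Other members of the same families were measured beside them. Nos1, the neuronal synthase, stood at 0.475 to 2.54 CPM over the 8 libraries, and the liver arginase Arg1 at 0 to 0.0518 CPM, under the limit for a gene with 0 reads. Slc7a1 (158 to 411 CPM) was thus above that limit where Slc7a2 was under it, and Arg2 where Arg1 was; other arginine transporters were not analysed here. Ptges2 (17.3 to 29.8 CPM) and Ptges3 (219 to 351 CPM), other enzymes named for prostaglandin E synthesis, were also detected in each library.

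The eicosanoid and itaconate lists were counted likewise. Of 19 tested eicosanoid genes, 1 rose with MCD, where 1.08% of all genes did: Ptger4, the EP4 receptor of prostaglandin E2, by 0.43 (SE 0.06, adjusted p = 0.00539, limma), from 33.4 and 35.3 CPM to 44.4 and 47.9 CPM. Before LPS it rose again, by 0.20 (SE 0.06, adjusted p = 0.0257, limma), as did the phospholipase Pla2g4c, by 0.94 (SE 0.27, adjusted p = 0.0275, limma), at 0.535 to 1.35 CPM, so that 2 of 17 rose, near the 12.9% of all genes; DESeq2 called 1 of these. Of 18 genes of the itaconate and citrate list, 0 passed in either comparison by limma, edgeR or DESeq2. For MCD-LPS against LPS, limma called 12.9% of all genes higher and 13% lower. At an unadjusted p under 0.05 there were 0 in MCD against ctl, where 1259 of 11777 genes were under it. In MCD-LPS against LPS, 2 were lower and 0 higher at that unadjusted threshold, where 4541 of 11976 genes were under it in either direction.

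**Figure D3:**
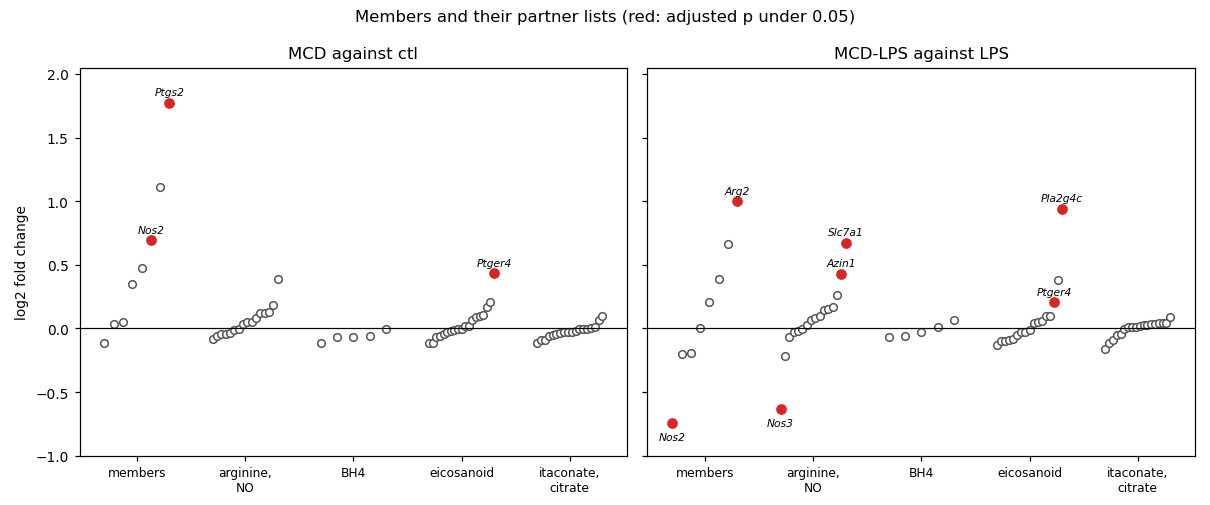
Each point is 1 gene tested and reported here, placed by its log2 fold change (vertical axis) for MCD against ctl on the left and MCD-LPS against LPS on the right, in 5 columns: the 8 members, then the partners in arginine and nitric oxide, tetrahydrobiopterin (BH4), eicosanoid, and itaconate and citrate metabolism. Red points passed at an adjusted p under 0.05 and are named; most partners lie close to 0, and Ptgs2 at 1.78 is the highest point.

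The genes most alike in pattern were found by the mean absolute difference, over the 8 libraries, of log2(CPM + 1) less its own mean, among 12235 genes. For Nos2 they were Gipr (0.24), Cish (0.26) and Serinc2 (0.26). Cish, a cytokine-induced SOCS family gene, averaged 0.0570 CPM in ctl, 0.128 in MCD, 31.4 in LPS and 23.1 in MCD-LPS. Its ctl and MCD means lay near the limit for a gene with 0 reads. For Ptgs2 they were Dusp5 (0.20), Phlda1 (0.26) and Ccl4 (0.32). Dusp5, a phosphatase of ERK, averaged 3.30 CPM in ctl, 12.4 in MCD, 52.0 in LPS and 42.6 in MCD-LPS, so its MCD mean lay above its ctl mean, as for Ptgs2. Phlda1 and Ccl4 averaged 102 and 480 CPM in LPS and 119 and 638 CPM in MCD-LPS, higher there, whereas the mean of Ptgs2 was lower. For Acod1 the nearest were Mir155hg (0.38), Sema6d (0.41) and Rgs16 (0.43). Mir155hg averaged 0.125 CPM in ctl and 0.797 in MCD, Sema6d 1.87 and 1.84, and Rgs16 0.217 and 0.212. Sema6d and Rgs16 thus did not share the higher MCD mean of Acod1. These are descriptions of likeness over 8 libraries in 4 groups.

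The authors' deposited means over the other 3 tables placed the members in other macrophages; the library columns behind them match no sample here and were not used, so no error is given. In macrophages grown from bone marrow and given LPS, some with acetylated LDL, the means were 58170 for Nos2, 98100 for Ptgs2, 18150 for Ptges, 293500 for Acod1 and 30390 normalized counts for Slc7a2. These put Acod1 above 99.9% of genes of that table and Slc7a2 above 99.1%. In the separate RAW table, untreated and LPS libraries together, Slc7a2 averaged 3236 and Nos2 23260 normalized counts, and in RAW cells given statin without and with LPS, 1567 and 5617. Ass1 averaged 0.42 in the marrow table, 0.223 in the statin table and 0 in the separate RAW table. The near absence of Ass1 reads thus extended to every table, whereas that of Slc7a2 did not. Whether Ass1 RNA was absent or its reads were not counted was not tested. Ptgs2 averaged 141200 and Acod1 313000 normalized counts in the separate RAW table, beside 19750 and 12910 over the LPS and MCD-LPS libraries. The tables were normalized separately, so these levels were not tested against each other.

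**Figure D4:**
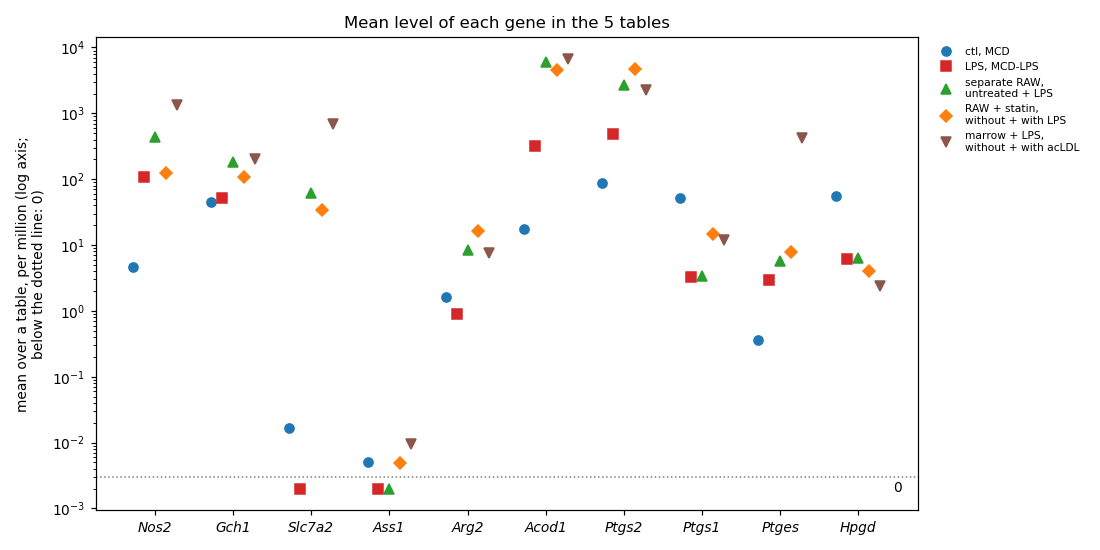
The mean of each of the 10 genes over the libraries of a table is plotted against a table sum of 1000000 (log axis; points under the dotted line are at 0), for the 2 tables of the 8 libraries and the authors' means of 3 further tables. Slc7a2 is at 0.0165 and 0 in the tables of the 8 libraries and at 34.7 to 699.5 in the others, and Ass1 is at or near 0 in each.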

How the data were processed

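RNA-seq of 8 libraries was analysed from 2 of 10 tables. Ribosomal RNA was depleted and a stranded kit used. The build was mm10, and the processing notes of the submitters list DESeq2 1.18.1, STAR 2.5.3 and HTSeq 0.9.1; the paper names a different quantifier, so the tool behind the tables is unsettled. Each deposited signal per library is a gene count that the authors scaled by 1 size factor for that library, separately in each table ("normalized counts"); their mean signal per table is also deposited. Whole reads were recovered (100% of values were multiples of 1 step within 0.01) and gave CPM. Deposited log2 fold changes, Wald scores and p-values were not used, nor were 12 library columns that matched no sample. RAW cells, untreated and with LPS, occur in a further table too; assigning the ctl and LPS samples to the tables that hold MCD is an inference.

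Genes reaching 10 in 2 libraries of a table were tested by limma 3.58.1 with trend (R 4.3.3) on log2(value + 1), all 8 libraries in 1 fit, no replicate block, two-sided, with Benjamini-Hochberg adjustment read at 0.05. The script was tested on simulated data. Alternatives were a pseudocount of 0.5 or 5, other filters, the 4 libraries of a table alone (not possible for the difference of effects), TMM scaling, a replicate block, edgeR 4.0.16 and DESeq2 1.42.0 on recovered reads, and each library left out. Positions follow GENCODE on GRCm38. The members and lists were chosen with earlier results of these data known; 1 gene of the tetrahydrobiopterin list is not reported here, so no counts are given for that list. All 10 members were named, partner genes where they passed or belong to a member's family, and the 3 genes nearest in pattern to Nos2, Ptgs2 and Acod1.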

Additional observations from a re-analysis of the deposited data

Results flagged for a closer look

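The MCD effect read after LPS differed from that read at the end of MCD for 3 members, by a test of the difference itself (limma). The effect before LPS less the effect at rest was -1.44 on the log2 scale for Nos2, -1.97 for Ptgs2 and 0.32 for Hpgd. LPS, the time since MCD and the table cannot be told apart in these differences. The first 2 held in each of 16 alternatives and that of Hpgd in 7 of 16.

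Slc7a2, at 0 or 1 read in each of the 8 libraries, had a signal in data that no comparison used. The authors' mean was 30390 normalized counts over LPS-treated marrow macrophages, 3236 over the other set of RAW libraries, untreated and with LPS together, and 1567 over RAW cells with statin. No error is given for these means, since the library columns behind them match no sample here and were not used. Groups of 2 libraries are too small for a test of outlying libraries.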

How the results depend on the processing

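Of 396 values of the members under the alternatives, 362 kept their direction and their side of the threshold. With MCD against ctl, 127 genes were higher and 4 lower; the counts were 84 and 1 without a filter, 450 and 115 in a fit of the 4 libraries, 199 and 15 in DESeq2, and ranged from 27 to 289 and from 0 to 31 with 1 library left out. The members higher numbered 2, 3 in the fit of 4 libraries, and 2 to 3 with 1 library left out (3 without LPS replicate 1 or 2, where Acod1 was added). With MCD-LPS against LPS, 1548 and 1551 became 819 and 972 in the fit of 4 libraries, and 890 to 1795 and 924 to 1605 with 1 library left out, where 1 to 3 members were higher and 1 to 2 lower; 0 members were higher in the fit of 4 libraries. For the difference of effects, 822 and 1153 ranged from 245 to 1306 and from 576 to 1385 with 1 library left out, where 0 to 1 members were higher; 0 were higher without a filter and in DESeq2. For LPS against ctl at 1.5-fold, 2256 genes were apart upward and 1880 downward, in place of 1385 and 748, and the members apart stayed at 4 and 3. The cause of these shifts was not tested.

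The replicate differences of the 2 groups compared correlated at 0.037 over genes in each table. This value cannot settle whether the replicate numbers pair the samples, since counting noise in single libraries can lower it. A replicate block gave 147 higher and 3 lower genes for MCD against ctl, with 3 members higher in place of 2 (Acod1 added), 2 members higher for MCD-LPS against LPS (Arg2 and Acod1) and 0 members higher for the difference of effects.

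Signs that turned belonged to changes near 0 or to Acod1. With 1 library left out, the log2 fold change of Gch1 ranged from -0.009 to 0.083 for MCD, from -0.086 to 0.089 before LPS and from -0.123 to 0.053 for the difference, that of Ptges from -0.095 to 0.184 for the difference, and that of Acod1 from -0.954 to 0.065 for the difference; Gch1 before LPS was -0.001 under TMM. With 2 libraries a group, depth does not limit the abundant members; Ptges, Arg2, Slc7a2 and Ass1 rest on few or no reads. Members under a value of 50 gave no value with that stricter filter, and the fit of 4 libraries gives none for the difference of effects.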

Other observations

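Partner genes also differed in level between the ctl and LPS libraries, across tables and with no test; over all genes, 11.5% were apart upward and 6.22% downward of 12021. Of 16 genes of arginine and nitric oxide metabolism at or over the minimum, 4 were apart upward and 2 downward. Among those upward, few reads lay behind Nos1 (21 and 27 in ctl, 109 and 72 in LPS) and Nos3 (33 and 30, 111 and 92). The same held for Ddah2 (29 and 21 in ctl, 33 and 89 in LPS). Odc1, which makes putrescine from ornithine, averaged 208 ± 13.7 CPM in ctl and 1558 ± 135 CPM in LPS (SD, n = 2), 7.50-fold higher, and stood at 1515 and 1541 CPM in MCD-LPS. Slc7a1 was 2.30-fold lower and Aldh18a1, which starts proline synthesis, 2.21-fold lower in LPS. Of 18 eicosanoid genes, 5 were apart upward and 1 downward. The prostaglandin receptors Ptger2 (6.64-fold), Ptger4 (2.42-fold) and Ptgir (2.27-fold), thromboxane synthase Tbxas1 (2.07-fold) and 5-lipoxygenase Alox5 (2.47-fold) were higher. Hpgds, a prostaglandin D2 synthase, was 2.41-fold lower. Few reads lay behind Ptger2 (10 and 21 in ctl, 86 and 104 in LPS) and Tbxas1 (23 and 20 in ctl, 48 and 35 in LPS). Of 18 itaconate and citrate genes, Rab32 was apart, 2.36-fold lower.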
